A study of Homo sapiens with 12 samples.

Results

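The genes described here are those of the mitochondrial ribosomal proteins, taken as every protein-coding row of the deposited count table whose symbol is MRPL or MRPS followed by a number. The rule used no measured value, and it found 78 of the 58037 identifiers in the table, 49 with MRPL and 29 with MRPS symbols. A further 86 rows with such symbols were left out because the annotation gives 79 of them as pseudogenes and 7 as long non-coding RNAs. By structure, 51 members belong to the large subunit, 26 to the small subunit and 1, MRPS36, to neither, since its product is now assigned to the 2-oxoglutarate dehydrogenase complex. The symbols do not always name the subunit: the products of MRPS30 and MRPS18A sit in the large subunit. Of the subunit proteins, 46 have a bacterial counterpart and 31 are found only in mitochondrial ribosomes.

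The mitochondrial ribosome translates the few mRNAs that are encoded by mitochondrial DNA, all of which specify subunits of the respiratory chain and ATP synthase. Its rRNAs come from mitochondrial DNA, whereas all of its proteins are encoded in the nucleus, made in the cytosol and imported. It descends from a bacterial ribosome, and tetracyclines such as doxycycline (DOX), which bind the small subunit of bacterial ribosomes, inhibit it too.

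RNA was sequenced from DU-145 and LNCaP-AI prostate cancer cells, 12 samples in all, with 3 samples in each of 4 groups: DU-145 vehicle, DU-145 DOX, LNCaP-AI vehicle and LNCaP-AI DOX. DU-145 is an established prostate cancer line, and LNCaP-AI is an androgen-independent line selected by long culture in charcoal-stripped serum. All samples carried the same DOX-inducible vector with an shRNA against MUC1 (tet-MUC1shRNA), as a stable pool selected with puromycin, and the sources differ on the serum of DU-145: the labels give charcoal-stripped serum for both lines, while the study's methods give it for LNCaP-AI and heat-inactivated serum for DU-145, so the medium may differ between the lines. The cells were treated for 7 days, with DOX at 500 ng/ml or with 0.1% DMSO as vehicle. The labels name the groups shCTL and shMUC1, while the study's legends give vehicle and DOX treatment of the same cells, and the latter names are used here. No control shRNA line was among the samples used here, and the comparisons of vehicle with DOX therefore cannot tell MUC1 silencing apart from DOX acting by itself. In bulk RNA, fewer transcripts per cell and fewer cells of a type cannot be told apart either.

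MUC1, the target of the shRNA, had 74, 60 and 59 counts in the DU-145 vehicle samples and 3 counts in each of the DU-145 DOX samples. In LNCaP-AI it had 36, 25 and 52 counts with vehicle and 8, 6 and 3 with DOX. It was lower with DOX in both lines, by a log2 fold change of -4.39 (SE 0.31, adjusted p = 1.37e-09) in DU-145 and -2.50 (SE 0.33, adjusted p = 0.0139) in LNCaP-AI. Fold changes, standard errors (SE) and Benjamini-Hochberg adjusted p-values throughout are those of edgeR's quasi-likelihood test over all genes tested, and a gene was called at an adjusted p under 0.05. Levels of single genes are given as CPM, the counts relative to library size, scaled by TMM within the 6 samples of a line.

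Total counts were 10423437 to 13544153 per sample in DU-145 and 16569613 to 26961777 in LNCaP-AI. The LNCaP-AI samples divided across treatment on the first principal component (82.5% of the variance), with vehicle 1 beside DOX 2 and DOX 3 and, opposite them, DOX 1 beside vehicle 2 and vehicle 3. All 6 markers listed for the DU-145 line were detected in each of the latter samples, with a summed level of 680 to 808 CPM against 138 to 160 CPM in the former. CD44 had 1483, 2405 and 1706 counts in them and 0, 1 and 3 counts in the former, while VIM was at 29.4, 28.9 and 32.2 CPM in vehicle 1, 2 and 3. KRT17, another of the 6, had 0 counts in every DU-145 sample, so the list is not fully expressed in DU-145 itself. The part of this division in the results was not tested. For LNCaP-AI, values within each side are also given, without a test, for some genes. These are the members called with DOX in that line or flagged as differing between the lines, and the called genes named from other lists.

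With vehicle, the members ranged widely in level. Per length (counts divided by the summed exon length and scaled, as for TPM, to the same sum in every sample), the median member was at 59.7 in DU-145, with the middle of the members between 33.9 and 136, and at 86.2 in LNCaP-AI, between 43.3 and 190. The lowest member was at 0.513 and the highest at 347 in DU-145, and at 0.641 and 593 in LNCaP-AI. The highest in DU-145 were MRPS21 (347 ± 16.6, SD, n = 3), MRPL3 (299 ± 24.0), MRPL51 (288 ± 11.1), MRPL18 (253 ± 11.6) and MRPL39 (227 ± 15.0). In this order the mean ± SD ranges of MRPL3 and MRPL51 overlapped, as did those of MRPL18 and MRPL39. MRPS21 and MRPL3 are the counterparts of the bacterial ribosomal proteins S21 and L3, and MRPL51 and MRPL39 have no bacterial counterpart. In LNCaP-AI the highest were MRPL41 (593 ± 71.5), MRPL51 (528 ± 57.5), MRPL3 (462 ± 53.9), MRPL37 (424 ± 40.3) and MRPS34 (423 ± 51.8), where the mean ± SD range of each overlapped that of the next. MRPL41, MRPL37 and MRPS34 are mitochondria-specific proteins.

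MRPS24 and MRPL38 stood lowest in both lines. MRPS24 had 0 to 10 counts in the DU-145 samples and 0 to 15 in the LNCaP-AI samples, and MRPL38 had 9 to 33 and 14 to 56. Above them in DU-145 came MRPS18C (3.68 ± 0.995), MRPL23 (4.28 ± 0.594) and MRPL46 (5.06 ± 0.655), and in LNCaP-AI MRPS18C (5.09 ± 1.10), MRPL46 (6.10 ± 0.769) and MRPS12 (8.99 ± 1.30). MRPS18C, MRPS12 and MRPL23 are counterparts of the bacterial proteins S18, S12 and L23. For some members the low level cannot be read as low expression: 23.2% of the exon bases of MRPS24 and 41.1% of those of MRPL38 are shared with another gene on the same strand, and how reads on shared bases were counted is not given in the sources used here. MRPS24 was the only member under the filter on low counts, and only in DU-145. The sources do not say either how strand was treated. In all, 7 members share over 20% of their exon bases with a gene on the same strand and 10 with a gene on the other strand, and 36 have at least 1 pseudogene of their own symbol in the annotation.

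**Figure D1:**
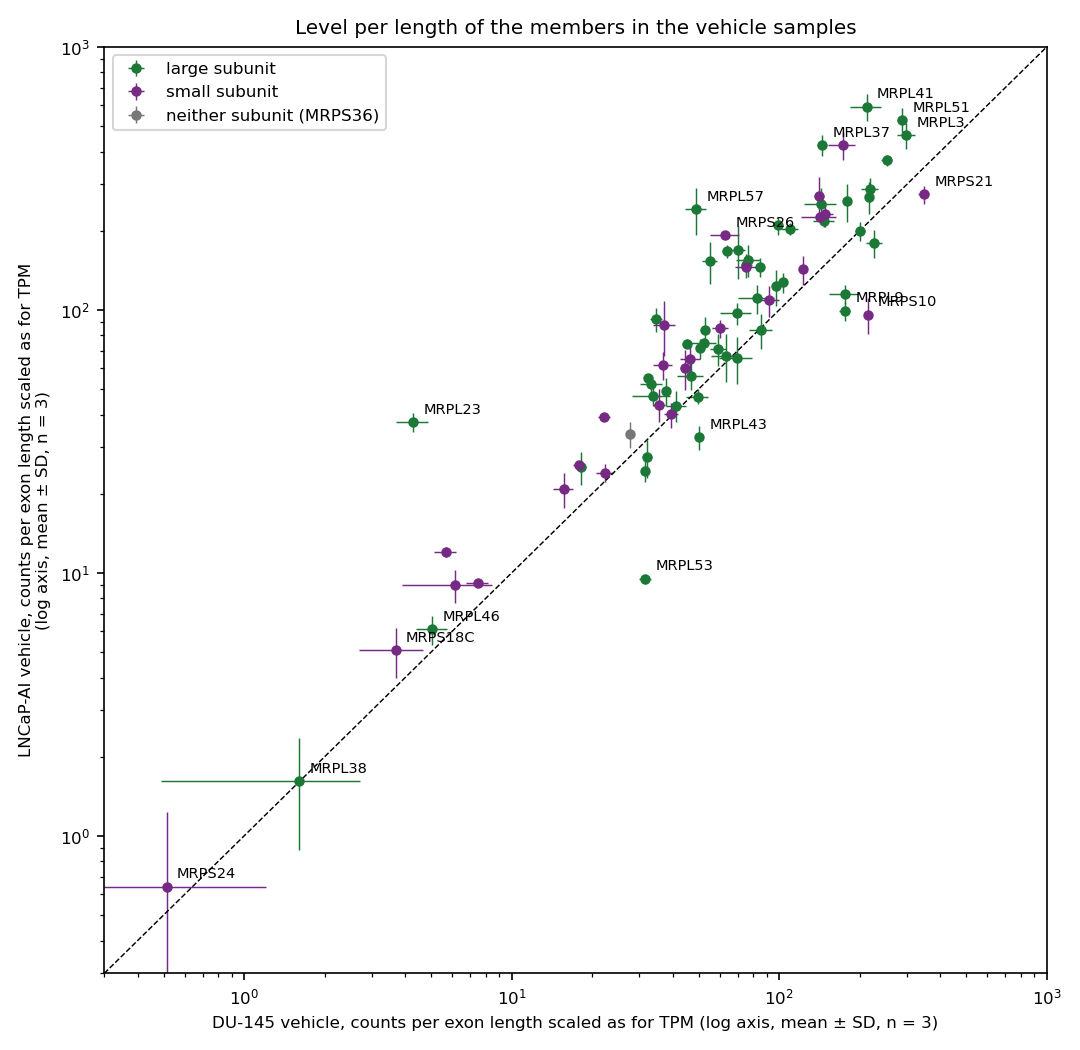
Level per length of the 78 members in the vehicle samples of DU-145 (horizontal) and LNCaP-AI (vertical), as TPM-like values (counts per exon length scaled to the same sum in every sample) on log axes, mean ± SD of 3 samples, coloured by subunit. Most points lie above the dashed line of equality, MRPL23 farthest above it and MRPL53 farthest below, and MRPS24 and MRPL38 lie at the low end in both lines.

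Without DOX, many members differed between the lines. Of the 78 tested, 35 were higher in LNCaP-AI (44.9%, against 35.0% of all genes tested) and 10 were lower (12.8%, against 30.2%), with a median log2 difference of 0.23 against 0.06 for all genes. The largest difference was that of MRPL23, whose level per length was 4.93, 3.77 and 4.13 in DU-145 and 40.9, 36.0 and 35.4 in LNCaP-AI (log2 difference 2.89, SE 0.13, adjusted p = 7.09e-06). MRPL57 followed, at 49.7, 53.0 and 44.1 in DU-145 and 294, 234 and 198 in LNCaP-AI (2.05, SE 0.14, adjusted p = 3e-05). The groups did not overlap for either gene. MRPL37 (1.31), MRPS26 (1.38) and MRPL41 (1.24), all mitochondria-specific, were also higher in LNCaP-AI, with adjusted p from 2.74e-05 to 6.22e-05.

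Among the 10 that were lower in LNCaP-AI, MRPL9, the counterpart of bacterial L9, was at 186, 175 and 169 per length in DU-145 and 109, 94.7 and 94.4 in LNCaP-AI (-1.07, SE 0.08, adjusted p = 4.76e-05). MRPL53 was at 30.8, 30.3 and 33.3 against 9.04, 9.71 and 9.77 (-1.96, SE 0.19, adjusted p = 0.000126), but CCDC142 shares 72.8% of its exon bases on the same strand. MRPS10, the counterpart of bacterial S10, was at 218, 218 and 207 against 80.4, 110 and 97.2 (-1.40, SE 0.15, adjusted p = 0.000208). MRPS21 (-0.58, adjusted p = 0.000506) and MRPL43 (-0.86, adjusted p = 0.000607) completed the named members in this direction. Genes on the other strand cover 30.5% of the exon bases of MRPL9 and 38.1% of those of MRPL43, and the annotation lists 8 pseudogenes of MRPS21 and 5 of MRPL57. Among the 10 mitochondria-specific members of the small subunit, 6 were higher in LNCaP-AI (60%, against 35.0% of all genes), and none was lower by edgeR or DESeq2. In the same comparison all 13 mitochondrially encoded mRNAs had negative differences (median -0.59), of which 5 were called lower by edgeR (38.5%, against 30.2% of all genes). DESeq2 called 9 of them lower, against 4772 of all 15628 genes.

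In DU-145, DOX was accompanied by small rises of many members and a clear fall of a few. Of the 77 tested, 36 rose (46.8%, against 26.3% of the 13644 genes tested), 6 fell (7.79%, against 25.3%) and 35 were not called. The median log2 fold change was 0.21, against 0.00 for all genes, with the middle of the members between -0.02 and 0.34. A change of 0.21 is modest: 10 members passed an absolute log2 fold change of 0.5 and only MRPL42 passed 1. Among large-subunit members 26 of 51 rose and 3 fell (median 0.24), and among small-subunit members 9 of 25 rose and 3 fell (median 0.10). Members with a bacterial counterpart (23 of 45 rose, 4 fell, median 0.22) and mitochondria-specific members (12 of 31 rose, 2 fell, median 0.14) both held more rises than falls. MRPS36, which is not a ribosomal protein in this sense, rose as well (0.52, SE 0.12, adjusted p = 0.00143).

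MRPL42 (ENSG00000198015, chromosome 12, 93467514 to 93516214 on GRCh38), a mitochondria-specific protein of the large subunit, fell most. It was at 135, 140 and 148 CPM in the vehicle samples and at 68.0, 65.4 and 70.0 CPM in the DOX samples, so the DOX mean was 48.1% of that with vehicle (log2 fold change -1.06, SE 0.07, adjusted p = 4.03e-10). All DOX samples were far below all vehicle samples. MRPS35 (ENSG00000061794, chromosome 12, 27710822 to 27756295), a mitochondria-specific protein of the small subunit, was at 71.6, 74.4 and 72.3 CPM with vehicle and at 48.3, 43.0 and 43.5 CPM with DOX (-0.70, SE 0.07, adjusted p = 2.65e-07). MRPL17 (ENSG00000158042, chromosome 11, 6680385 to 6683340), the counterpart of bacterial L17, was at 47.5, 53.5 and 46.7 CPM with vehicle and at 30.1, 28.3 and 30.3 CPM with DOX (-0.73, SE 0.08, adjusted p = 5.1e-07). For these genes too the groups were well apart.

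The other 3 falls were small. MRPS10 was at 115, 128 and 119 CPM with vehicle and at 97.3, 100.6 and 102 CPM with DOX (-0.27, SE 0.07, adjusted p = 0.0032). MRPL32, which the m-AAA protease cuts before it enters the large subunit, was at 70.9, 89.2 and 71.1 CPM against 63.9, 59.2 and 70.6 CPM (-0.25, SE 0.09, adjusted p = 0.0251). MRPS16, the counterpart of bacterial S16, was at 112, 115 and 106 CPM against 103, 93.8 and 97.6 CPM (-0.18, SE 0.07, adjusted p = 0.0366). For MRPL32 the highest DOX sample lay just under the lowest vehicle sample. MRPL32 was not called when vehicle 2, DOX 1 or DOX 2 was left out (adjusted p = 0.103, 0.0862 and 0.149), nor MRPS16 without vehicle 1, vehicle 2, DOX 2 or DOX 3 (0.0544, 0.0527, 0.147 and 0.0987).

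The rises with the smallest adjusted p came from both subunits. MRPL52 (ENSG00000172590, chromosome 14, 22829879 to 22835037), a mitochondria-specific large-subunit protein, was at 25.9, 28.2 and 27.1 CPM with vehicle and at 43.5, 47.2 and 47.3 CPM with DOX (0.77, SE 0.08, adjusted p = 2.39e-07). MRPS11 (ENSG00000181991, chromosome 15, 88467453 to 88480776), the counterpart of bacterial S11, was at 26.7, 27.7 and 26.5 CPM against 40.7, 39.2 and 43.99 CPM (0.61, SE 0.08, adjusted p = 4.29e-06). MRPL14, the counterpart of bacterial L14, was at 49.9, 51.5 and 52.8 CPM against 70.6, 75.2 and 76.3 CPM (0.53, SE 0.07, adjusted p = 5.16e-06). In each of these genes the lowest DOX sample was well above the highest vehicle sample. MRPL2, the counterpart of bacterial L2, a protein near the peptidyl transferase centre, was at 25.2, 26.3 and 27.1 CPM against 39.6, 38.6 and 38.3 CPM (0.57, SE 0.08, adjusted p = 9.08e-06). MRPL37, mitochondria-specific, was at 95.2, 105 and 95.5 CPM against 151, 132 and 132 CPM (0.49, SE 0.07, adjusted p = 1.93e-05). MRPL21, MRPL49 and MRPS22 rose by 0.52, 0.42 and 0.47, with adjusted p of 4.15e-05, 7.4e-05 and 0.000131. For MRPS22, which is mutated in a mitochondrial translation disorder, genes on the other strand cover 42.8% of the exon bases. The other 28 members that rose had log2 fold changes from 0.18 to 0.62.

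**Figure D2:**
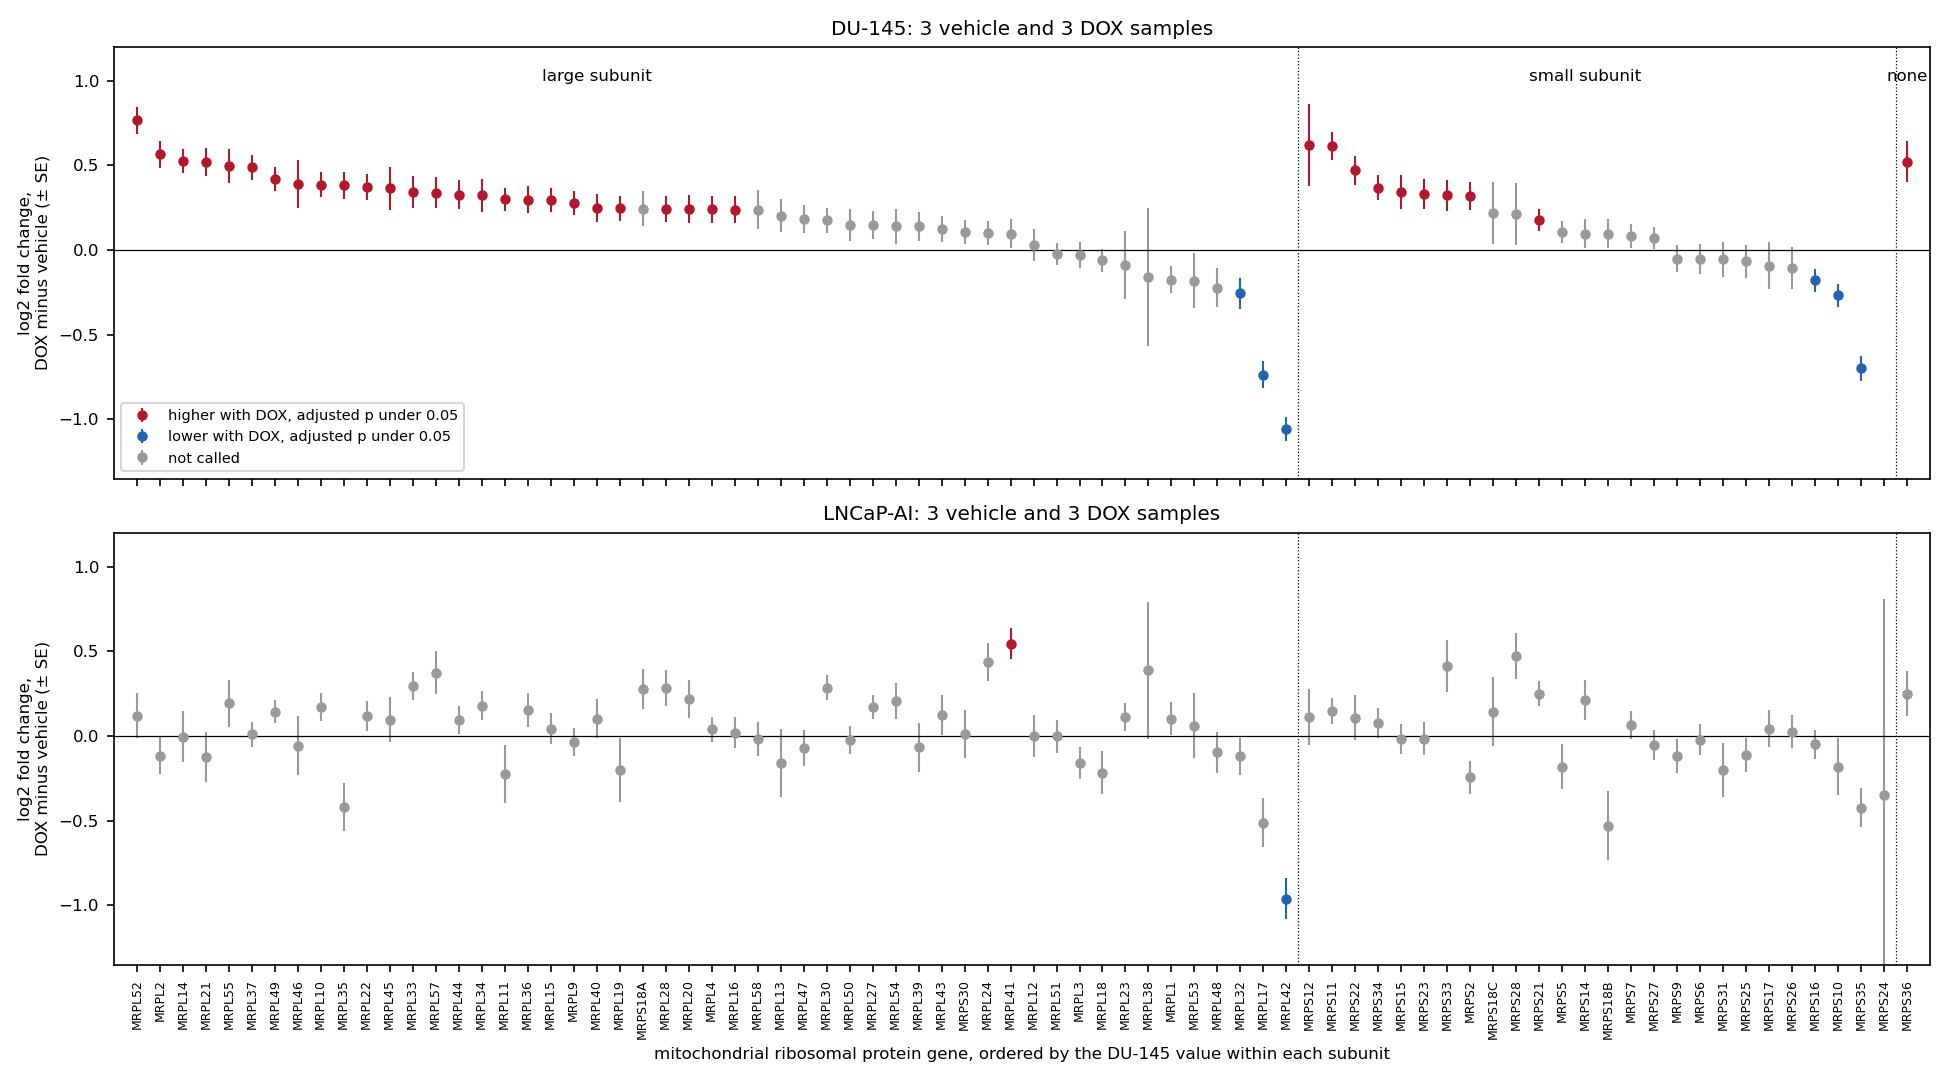
Log2 fold change (DOX minus vehicle, ± SE, edgeR) of each member in DU-145 (top) and LNCaP-AI (bottom), ordered by the DU-145 value within the large subunit, the small subunit and MRPS36, with called rises in red, called falls in blue and the rest in grey. In DU-145 most points lie above 0 with MRPL42, MRPL17 and MRPS35 far below it, and in LNCaP-AI most points lie around 0 with MRPL42 again the lowest. MRPS24 has no DU-145 value, and its lower error bar in LNCaP-AI runs off the axis.

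In LNCaP-AI the members did not move together. Of the 78 tested, 1 rose (1.28%, against 7.22% of the 16030 genes tested), 1 fell (1.28%, against 5.52%) and 76 were not called, with 16 at an unadjusted p under 0.05. Shares of all genes at an unadjusted p are not given, here or below. The median log2 fold change was 0.03, against -0.05 for all genes, and among vehicle 1, DOX 2 and DOX 3 alone it was -0.01, among the other LNCaP-AI samples 0.12. A p that misses the threshold in these samples does not show that the levels were equal. By DESeq2, 7 of the 78 members rose and 4 fell, against 1897 and 1620 of all 16030 genes.

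MRPL42 was the member that fell by edgeR. It was at 135, 110 and 110 CPM with vehicle and at 66.1, 55.5 and 61.0 CPM with DOX (log2 fold change -0.96, SE 0.12, adjusted p = 0.0128), with no overlap between the groups, and the DOX mean was 51.4% of that with vehicle. Within the sides the values were -1.21 and -0.74. It was not called without DOX 2 (-0.89, adjusted p = 0.0856) or without DOX 3 (-0.96, adjusted p = 0.0847). Over all genes, each of these fits called only 1 gene higher and 0 lower (15807 and 15816 tested). A call missed without DOX 2 or DOX 3 is therefore not particular to a gene, here or below. The annotation lists 5 pseudogenes of MRPL42, with which reads could be shared, and this was not tested.

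MRPL41 (ENSG00000182154, chromosome 9, 137551879 to 137552555), which is mitochondria-specific, was the one that rose by edgeR. It was the highest member in this line per summed exon length, but had rank 4 with the longest transcript as length. It was at 98.6, 84.6 and 88.9 CPM with vehicle and at 125, 135 and 138 CPM with DOX (0.55, SE 0.09, adjusted p = 0.0192). The groups did not overlap, and the values within the sides were 0.47 and 0.52. It was not called without DOX 2 (0.54, adjusted p = 0.109) or without DOX 3 (0.52, adjusted p = 0.111). In DU-145 it was at 35.1, 29.9 and 34.0 CPM against 33.3, 37.4 and 35.2 CPM, where the groups overlapped (0.10, SE 0.08).

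MRPL17 and MRPS35, which fell in DU-145, missed the threshold in LNCaP-AI. MRPL17 was at 139, 108 and 100.6 CPM with vehicle and at 74.4, 84.9 and 85.0 CPM with DOX (-0.51, SE 0.14, adjusted p = 0.0681). MRPS35 was at 157, 135 and 120 CPM against 105, 96.7 and 106 CPM (-0.42, SE 0.11, adjusted p = 0.063). DESeq2 called both falls there (adjusted p = 0.00782 and 0.00422). Neither gene had overlapping groups, and all 6 members that fell in DU-145 had negative log2 fold changes in LNCaP-AI. Of the 36 that rose in DU-145, 25 had positive and 11 negative values in LNCaP-AI. Of all 78 members, 44 had positive and 34 negative values there. The same counts for all genes called in DU-145 are not given here, so these signs are not read as agreement between the lines. By edgeR, only MRPL42 was called in the same direction in both lines, and no member was called in opposite directions.

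**Figure D3:**
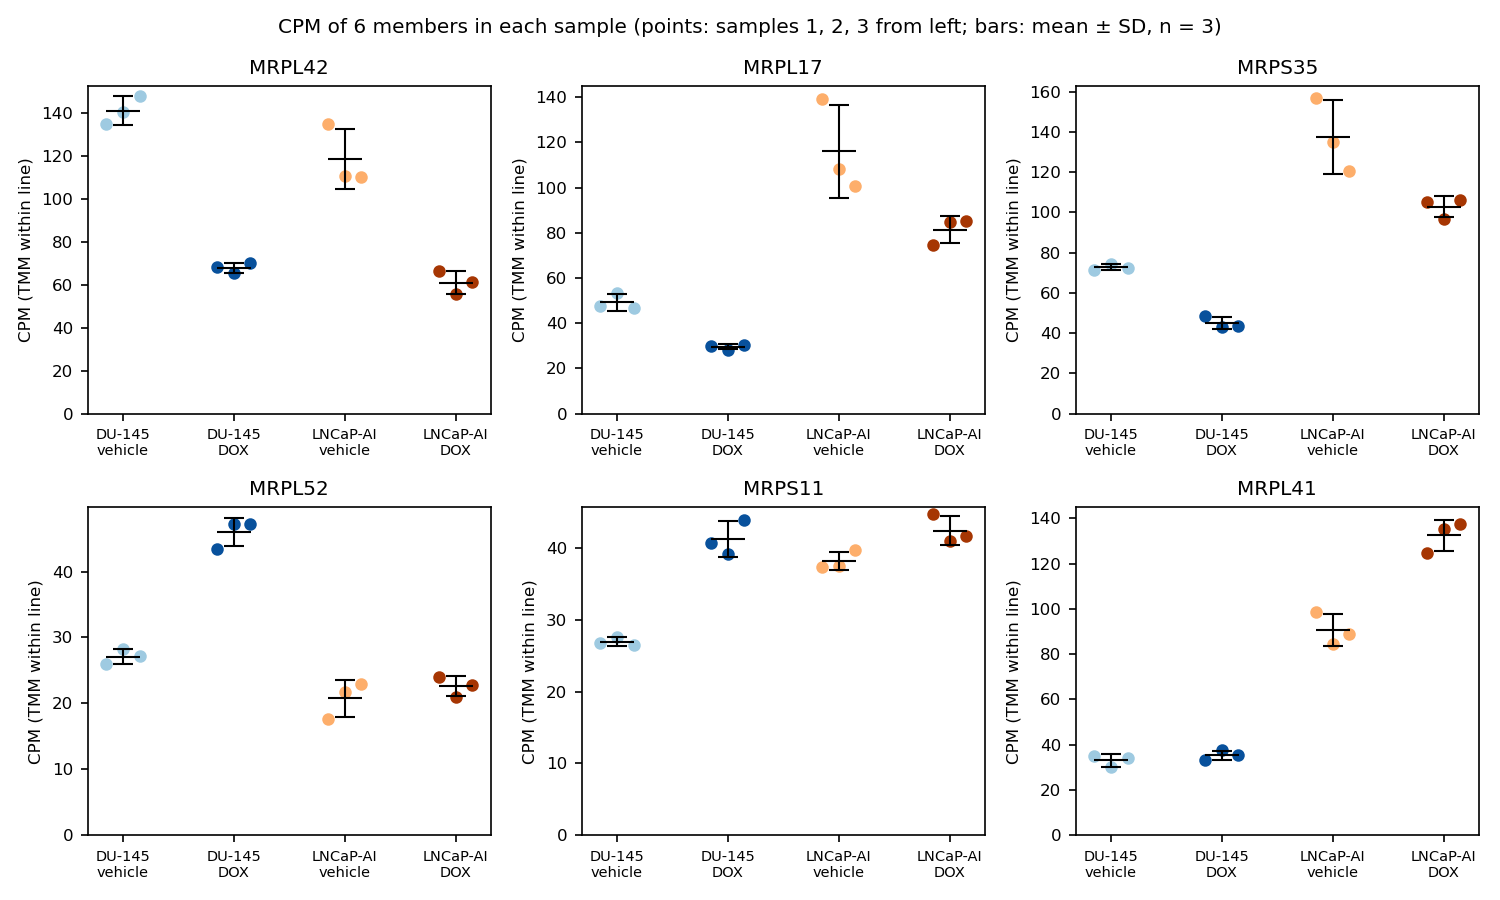
CPM of 6 members in each of the 12 samples (points, replicates 1 to 3 from left to right) with the mean ± SD of each group of 3. The points of MRPL42, MRPL17 and MRPS35 are lower with DOX in both lines (called in LNCaP-AI by edgeR for MRPL42 only). MRPL52 and MRPS11 are higher with DOX in DU-145. MRPL41 is higher with DOX in LNCaP-AI, where its vehicle samples sit between 84.6 and 98.6 CPM and its DOX samples between 125 and 138 CPM.

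An interaction term over all 12 samples tested whether the change from vehicle to DOX, which includes MUC1 silencing, differed between the lines. It was called in 1 member in the direction of LNCaP-AI (1.28%, against 5.43% of all genes tested) and in 6 members in the direction of DU-145 (7.69%, against 3.76%). The latter were MRPL2 (-0.65, SE 0.13, adjusted p = 0.0122), MRPL35 (-0.77, SE 0.16, adjusted p = 0.0167), MRPL37 (-0.44, SE 0.10, adjusted p = 0.0261), MRPS11 (-0.43, SE 0.10, adjusted p = 0.0264), MRPL52 (-0.61, SE 0.15, adjusted p = 0.033) and MRPS2 (-0.52, SE 0.14, adjusted p = 0.0398). Each of them rose in DU-145 and had no change called by edgeR in LNCaP-AI, where DESeq2 called MRPL35 lower (-0.42, adjusted p = 0.0299). MRPL35, the counterpart of bacterial L35, shows the pattern most clearly: it was at 33.5, 35.3 and 37.8 CPM with vehicle and at 48.7, 44.4 and 46.0 CPM with DOX in DU-145, and at 88.0, 103 and 87.2 against 82.3, 64.3 and 61.9 CPM in LNCaP-AI. MRPL41 was the member in the other direction (0.48, SE 0.12, adjusted p = 0.033). MRPL2 and MRPL35 were called in all 12 fits that left out 1 sample, whereas MRPL37 was called in 7, MRPS11 in 5, MRPL41 in 4, MRPS2 in 3 and MRPL52 in 2 of them. For MRPL42 the difference was not called, and it ranged from 0.07 to 0.22 over those fits.

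The MRPS18 paralogs, which descend from a gene for the counterpart of bacterial S18, sit at different places in the particle, MRPS18A in the large and MRPS18B and MRPS18C in the small subunit. None of them was called with DOX in either line by edgeR. Genes on the other strand cover 50.9% of the exon bases of MRPS18A and 40.2% of those of MRPS18C. MRPS18A was at 15.6, 14.7 and 15.5 CPM with vehicle and 16.3, 18.8 and 19.2 CPM with DOX in DU-145 (0.25, adjusted p = 0.0572). MRPS18B was at 34.2, 41.9 and 42.5 CPM with vehicle and 35.7, 23.2 and 23.2 CPM with DOX in LNCaP-AI (-0.53, adjusted p = 0.137). In the latter, DOX 1 lay among the vehicle samples and DOX 2 and DOX 3 below them.

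As a total, the members made up 0.426 to 0.461% of the counts in the DU-145 vehicle samples and 0.462 to 0.482% in the DOX samples. Their summed level was 4333 ± 223 CPM with vehicle and 4765 ± 120 CPM with DOX (n = 3 each, exact permutation test, two-sided, p = 0.1), where 0.1 is the smallest p that 3 samples against 3 allow. The large-subunit members went from 2823 ± 142 to 3142 ± 85.0 CPM (exact p = 0.1) and the small-subunit members from 1498 ± 80.0 to 1607 ± 35.3 CPM (exact p = 0.2). In LNCaP-AI the sum was 6144 ± 194 CPM with vehicle and 6174 ± 242 CPM with DOX (exact p = 0.9), and the difference was within the spread.

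The genes for proteins of the cytosolic ribosome moved the other way in DU-145. Of 85 tested genes, 38 fell (44.7%, against 25.3% of all genes) and 4 rose (4.71%, against 26.3%), with a median of -0.16. RPL7 (-0.67, adjusted p = 4.01e-07) and RPL36A (-1.03, adjusted p = 0.000256) were among the falls, while RPL26L1 rose (0.48, adjusted p = 0.00045). Their sum was 37870 ± 3902 CPM with vehicle and 34114 ± 890 CPM with DOX (exact permutation p = 0.1). By sample it was 35740, 42374 and 35496 CPM with vehicle and 34075, 33245 and 35024 CPM with DOX. Vehicle 2 thus stood well above the other samples, which lay close together. In LNCaP-AI 11 of 86 rose (12.8%, against 7.22% of all genes) and none fell (against 5.52%), with a median of 0.21. By DESeq2, 30 rose and 1 fell, against 1897 and 1620 of all 16030 genes. Among the 11 were RPS27 (0.55, adjusted p = 0.0141), RPS27L (1.08, adjusted p = 0.0153), RPS28 (0.49, adjusted p = 0.0242) and RPL3L (1.10, adjusted p = 0.0256). Within the sides they were, in this order, at 0.53 and 0.52, 1.01 and 0.99, 0.40 and 0.58, and 0.98 and 0.94. The median was 0.15 among vehicle 1, DOX 2 and DOX 3 and 0.29 among the others, and the 11 rises were called in at most 4 of the 6 fits without 1 sample. The sum was 42853 ± 883 against 49246 ± 2175 CPM (exact permutation p = 0.1). The interaction was called in 23 of 87 cytosolic genes, all in the direction of LNCaP-AI (26.4%, against 5.43% of all genes). Many of these genes have processed pseudogenes, and their counts are uncertain where reads could be split.

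The mRNAs that the mitochondrial ribosome translates were measured too. In DU-145 edgeR called 3 of 13 lower (23.1%, against 25.3% of all genes) and none higher, and DESeq2 called none (median -0.23). The 3 were MT-CYB (-0.46, adjusted p = 0.00574), MT-ND6 (-0.30, adjusted p = 0.0308) and MT-ATP6 (-0.34, adjusted p = 0.0351). They held 5.36, 7.88 and 7.39% of the counts with vehicle and 5.06, 5.91 and 6.66% with DOX (exact permutation p = 0.3), so the groups overlapped. In LNCaP-AI all 13 had positive values (median 0.43), and 1, MT-ND3, was called (7.69%, against 7.22% of all genes). MT-ND3 was at 0.91 (adjusted p = 0.0257), and it was not called without vehicle 2, DOX 2 or DOX 3 (adjusted p = 0.0679, 0.106 and 0.118). The median was 1.00 among vehicle 1, DOX 2 and DOX 3 and 0.03 among the other LNCaP-AI samples, and 5 of the 13 had opposite signs on the sides. MT-ND3 was at 1.10 and 0.80 within them. Their share was 3.45, 5.35 and 6.10% with vehicle and 5.61, 6.60 and 7.21% with DOX (exact permutation p = 0.2).

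**Figure D4:**
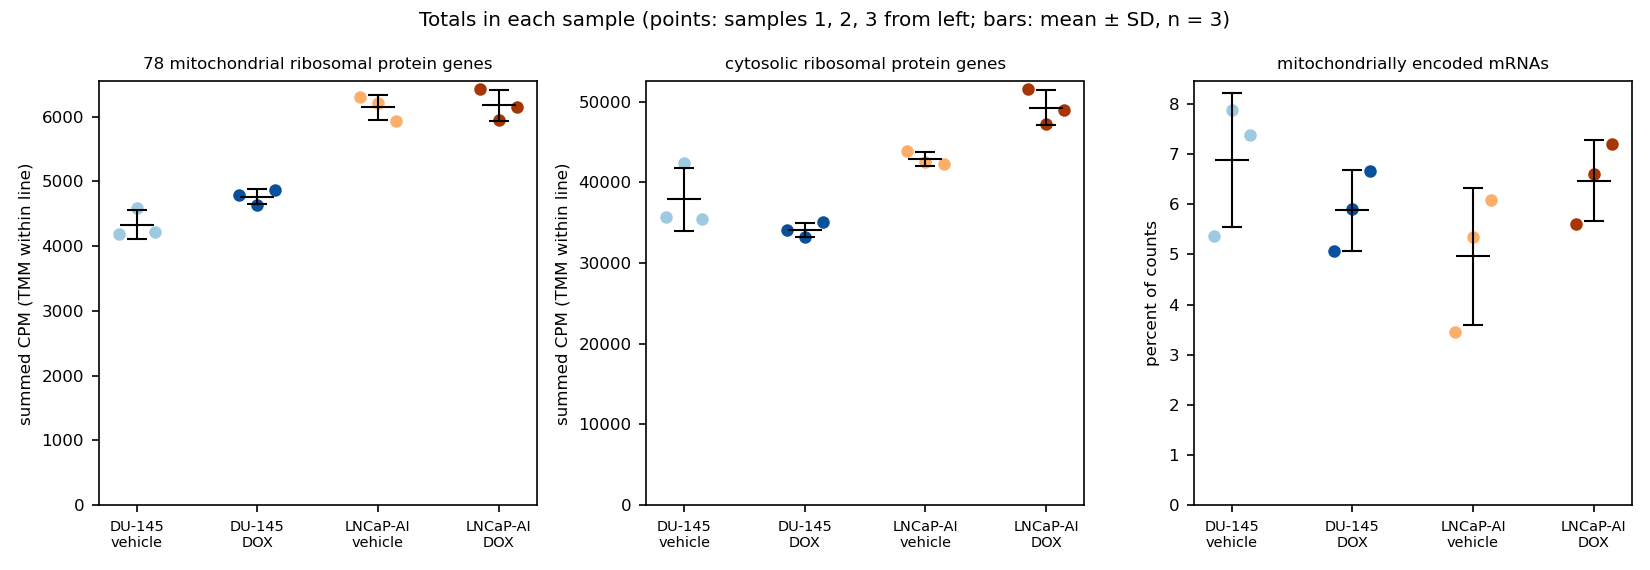
Summed CPM of the 78 members (left), summed CPM of the cytosolic ribosomal protein genes (middle) and percent of counts on the mitochondrially encoded mRNAs (right) in each sample, with the mean ± SD of each group of 3. In DU-145 the sum of the members is higher with DOX and that of the cytosolic genes lower, and in LNCaP-AI the sums of the members overlap between the groups while those of the cytosolic genes are higher with DOX.

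Other proteins of the mitochondrial ribosome carry other gene names. Of 5 such genes, 2 rose in DU-145 (40%, against 26.3% of all genes) and 1 in LNCaP-AI (20%, against 7.22%). DAP3, a GTP-binding protein of the small subunit that is also linked to cell death, rose in both lines, from 224 ± 2.72 to 326 ± 7.50 CPM in DU-145 (0.54, adjusted p = 1.17e-06) and from 154 ± 11.4 to 251 ± 8.13 CPM in LNCaP-AI (0.71, adjusted p = 0.0123). In LNCaP-AI it was at 0.63 and 0.71 within the sides, and it was not called without DOX 2 or DOX 3 (adjusted p = 0.0854 and 0.0829). GADD45GIP1, a large-subunit protein, rose in DU-145 (0.54, adjusted p = 1.76e-05) and was at 0.22 in LNCaP-AI (adjusted p = 0.138). PTCD3 (0.15), AURKAIP1 (0.11) and CHCHD1 (0.07) were not called in DU-145, and in LNCaP-AI their values were -0.21, 0.12 and 0.21.

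The factors that work with the ribosome moved in both directions, at shares near those of all genes. Of 16 mitochondrial translation factors, 4 rose in DU-145 (25%, against 26.3% of all genes) and 4 fell (25%, against 25.3%), with a median of -0.06. None was called in LNCaP-AI by edgeR (against 7.22% of all genes higher and 5.52% lower), where 2 had an unadjusted p under 0.05. By DESeq2, 2 fell there and none rose, against 1620 and 1897 of all 16030 genes. GFM1, the elongation factor that moves the ribosome along the mRNA, rose in DU-145 (0.66, adjusted p = 1.85e-07), as did LRPPRC, which stabilises mitochondrial mRNAs (0.36, adjusted p = 0.000392). MTIF3, an initiation factor, fell from 16.4 ± 1.54 to 8.90 ± 0.178 CPM (-0.88, adjusted p = 4.56e-06), and GFM2, which takes part in ribosome recycling, fell by 0.36 (adjusted p = 0.000312). In LNCaP-AI GFM2 was at -0.44 (adjusted p = 0.0964), GUF1 at -0.36 (0.105), MTRFR at -0.20 (0.27) and MTIF2 at -0.40 (0.313).

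Of 29 genes for assembly of the ribosome and maturation of its rRNA, 11 rose (37.9%, against 26.3% of all genes) and 3 fell (10.3%, against 25.3%) in DU-145 by edgeR (median 0.10). By DESeq2, 7 rose and 1 fell there, against 3112 and 2967 of all 13644 genes. NSUN4, an rRNA methyltransferase (0.47, adjusted p = 0.000106), PTCD1 (0.80, adjusted p = 0.000432) and MPV17L2 (0.54, adjusted p = 0.000464) rose, and MTERF3 fell (-0.85, adjusted p = 2.03e-07). In LNCaP-AI none of them was called by edgeR (7 at an unadjusted p under 0.05). By DESeq2, 4 rose and 1 fell there, against 1897 and 1620 of all 16030 genes. By edgeR, YBEY was at 0.47 (adjusted p = 0.0612), NOA1 at 0.47 (0.0684), NGRN at -0.47 (0.0764) and TRUB2 at 0.20 (0.104).

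Of 12 genes for transcription and replication of mitochondrial DNA, 2 rose (16.7%, against 26.3% of all genes) and 4 fell (33.3%, against 25.3%) in DU-145 (median -0.07). POLRMT, the mitochondrial RNA polymerase, rose (0.43, adjusted p = 0.000166), and TOP1MT (-0.47, adjusted p = 0.000224), SSBP1 (-0.36, adjusted p = 0.000499) and MTERF2 (-0.55, adjusted p = 0.0064) fell. None was called in LNCaP-AI by edgeR (2 at an unadjusted p under 0.05). By DESeq2, 2 fell there and none rose, against 1620 and 1897 of all 16030 genes. By edgeR, TFAM, which packages mitochondrial DNA, was at -0.37 (adjusted p = 0.0594), MGME1 at -0.70 (0.133), MTERF2 at 0.28 (0.244) and POLRMT at 0.13 (0.391).

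Mitochondrial proteases and chaperones, some of which respond when mitochondrial proteins are made out of balance, had 6 rises (42.9%, against 26.3% of all genes) and 3 falls (21.4%, against 25.3%) among 14 genes in DU-145 (median 0.15). The proteases LONP1 (0.56, adjusted p = 2.33e-06) and CLPP (0.66, adjusted p = 2.66e-06) and the prohibitin PHB1 (0.41, adjusted p = 0.000151) rose, and the protease OMA1 fell from 17.7 ± 0.722 to 10.3 ± 0.299 CPM (-0.78, adjusted p = 6.65e-06). In LNCaP-AI DESeq2 called 3 rises and 1 fall, against 1897 and 1620 of all 16030 genes. None was called there by edgeR (4 at an unadjusted p under 0.05). OMA1 there was at 0.65 (adjusted p = 0.0536), SPG7 at 0.29 (0.0614), CLPP at 0.29 (0.0913) and AFG3L2 at -0.24 (0.116).

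Among 11 nuclear regulators of mitochondrial genes, 3 of the 10 tested rose (30.0%, against 26.3% of all genes) and 4 fell (40.0%, against 25.3%) in DU-145 (median -0.04). MYC rose from 92.1 ± 3.37 to 139 ± 0.535 CPM (0.59, adjusted p = 4.54e-07). GABPA, the DNA-binding part of an ETS factor that acts on many promoters of mitochondrial genes, fell in both lines, by 0.54 on the log2 scale in DU-145 (adjusted p = 3.48e-05) and by 0.46 in LNCaP-AI (adjusted p = 0.031). Its partners GABPB2 (-0.47, adjusted p = 0.000322) and GABPB1 (-0.33, adjusted p = 0.00386) fell in DU-145. In LNCaP-AI 2 of 11 fell (18.2%, against 5.52% of all genes) and none rose (against 7.22%), with a median of -0.20. The 2 were GABPA (-0.57 and -0.35 within the sides) and PPARGC1B (-0.63, adjusted p = 0.0253, and -0.71 and -0.70 within the sides), while NRF1 was at -0.64 (adjusted p = 0.0603) and YY1 at -0.20 (0.15). Of the 6 fits that left out 1 sample, GABPA was called in that without DOX 1 only (adjusted p = 0.0515 to 0.152 in the others), and PPARGC1B in 3, not without vehicle 3, DOX 2 or DOX 3 (0.0511, 0.106 and 0.12).

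What the members share in the genome was described without a test. They lie on 21 chromosomes. A divergent protein-coding neighbour whose start lies within 1000 bases was annotated for 17 of the 78 (21.8%), against 8.42% of all protein-coding genes. MRPS11 and MRPL46 are such neighbours of each other, 63 bases apart, and both rose in DU-145 (0.61 and 0.39), whereas in LNCaP-AI they were at 0.15 and -0.06. MRPL49 lies 6 bases from FAU, which encodes a protein of the cytosolic ribosome, and both rose in DU-145 (0.42 and 0.21). MRPL36 and NDUFS6, a respiratory complex I gene, 41 bases apart, rose together as well (0.30 and 0.27). MRPL21 and IGHMBP2, 28 bases apart, rose too (0.52 and 0.59). In contrast MRPL57 rose in DU-145 (0.34) while SKA3, 106 bases away, fell (-0.62). Signs were also opposite for MRPL47 (0.18) and NDUFB5 (-0.18), MRPL27 (0.15) and EME1 (-0.39), and MRPL18 (-0.06) and TCP1 (0.20). These are the pairs whose neighbour was called in DU-145, and both same and opposite signs were found among them.

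Promoter sequences from RefSeq (GRCh38.p14, 250 bases before to 50 after the start) matched 69 of the 78 members by symbol. Short motifs were searched on both strands. CCGGAAG, bound by ETS factors, was found in 42.0% of the member promoters against 14.4% of 15251 protein-coding promoters, and AAGATGGC, bound by YY1, in 29.0% against 3.99%. GCGCATGC, bound by NRF1, was found in 8.70% against 4.27%, and CACGTG, an E-box, in 8.70% against 8.90%. A match describes letters and is not a binding site. The ETS motif was in 12 of 30 promoters of members that rose in DU-145, in 2 of 6 of those that fell and in 15 of 32 of the others. Shown are MRPL52 (chr14:22829637-22829886, plus strand), the member that rose most in DU-145, and MRPL42 (chr12:93467264-93467513, plus strand), the member that fell in both lines by edgeR. Also shown are MRPL17 (chr11:6683341-6683590, minus strand), which fell in DU-145, and MRPS34 (chr16:1773135-1773384, minus strand), which rose with several ETS matches. The bases before the start of these 4 members are given. They are written 5′ to 3′ along the gene with motif matches in capitals, and matches of a motif on both strands can overlap.
MRPL52: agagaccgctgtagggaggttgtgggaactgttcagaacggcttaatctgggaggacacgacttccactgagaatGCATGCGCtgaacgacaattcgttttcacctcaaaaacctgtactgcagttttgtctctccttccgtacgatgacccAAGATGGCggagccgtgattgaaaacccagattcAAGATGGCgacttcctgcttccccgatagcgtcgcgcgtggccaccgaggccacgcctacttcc
MRPL42: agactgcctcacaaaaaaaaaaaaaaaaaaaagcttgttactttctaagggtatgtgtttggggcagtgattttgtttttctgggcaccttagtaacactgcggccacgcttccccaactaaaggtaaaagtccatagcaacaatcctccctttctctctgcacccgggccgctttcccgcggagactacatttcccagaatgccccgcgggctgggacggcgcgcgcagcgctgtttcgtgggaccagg
MRPL17: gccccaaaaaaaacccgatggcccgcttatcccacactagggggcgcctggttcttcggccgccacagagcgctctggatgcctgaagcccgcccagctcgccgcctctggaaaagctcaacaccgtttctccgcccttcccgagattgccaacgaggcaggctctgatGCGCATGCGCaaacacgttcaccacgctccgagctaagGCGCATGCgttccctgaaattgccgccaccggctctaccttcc
MRPS34: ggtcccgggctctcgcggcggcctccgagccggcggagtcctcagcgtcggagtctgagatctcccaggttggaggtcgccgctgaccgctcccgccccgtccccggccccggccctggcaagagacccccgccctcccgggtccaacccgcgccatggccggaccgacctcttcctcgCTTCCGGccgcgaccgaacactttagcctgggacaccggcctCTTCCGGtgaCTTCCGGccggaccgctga

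The MRPL52 stretch holds 2 YY1 matches and 1 NRF1 match, that of MRPL17 holds 3 NRF1 matches, of which 2 overlap on opposite strands, and that of MRPS34 holds 3 ETS matches. That of MRPL42 holds none of these letters, from which nothing follows about the factors. MRPS34, a mitochondria-specific protein of the small subunit, rose in DU-145 (0.37, SE 0.07, adjusted p = 0.000402) and was at 0.08 in LNCaP-AI.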

How the data were processed

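RNA-seq of 12 samples (2 lines, vehicle and DOX, n = 3) was analysed. The authors isolated total RNA from cells cultured in triplicate and prepared TruSeq stranded mRNA libraries. The submitters' processing notes name CASAVA 1.8.2, STAR 2.7.0, DESeq2 1.24.0 and the build GRCh38.p7. The authors deposited raw counts per gene, without normalization, in a single table. The tool that counted reads and its treatment of strand and of shared reads are not given in the sources used here. The study's methods speak of triplicate cultures and of distinct samples, but not of whether these were grown side by side, so p-values measure the spread between these samples, which may be technical. No replicate pair agreed within sampling noise (smallest chi-square per degree of freedom 2.53, LNCaP-AI DOX 2 and 3), and all were kept.

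Ensembl IDs, cut at the version, were matched to GENCODE release 44 (GRCh38), and 56948 of 58037 had a symbol. Positions and exon lengths come from that release. Groups come from the labels. A minimum of 10 counts in 3 samples of the comparison was required, and tests used edgeR 4.0.16 in R 4.3.3 (TMM, glmQLFit, glmQLFTest, Benjamini-Hochberg), on the 6 samples of a line, on the 6 vehicle samples, and on all 12 for the interaction. Single values per sample were compared by two-sided exact permutation tests (scipy 1.17.1). Standard errors come from F and the fold change. Exon overlap shares count bases of the summed exons.

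On simulated counts, 60% of genes changed by a log2 fold change of 0.5 were recovered in DU-145, 82% of those changed by 1 and 96% of those changed by 2, with 6 false calls among 13479 genes. In LNCaP-AI these shares were 0%, 14% and 47% (2 false calls among 15495 genes), for the interaction 0%, 16% and 64% (2 among 16067) and for the vehicle samples 0%, 24% and 75% (4 among 15107). Only 50, 50 and 100 genes were changed by 0.5, 1 and 2 in each simulation, far fewer than were called in the data. The adjusted p threshold was therefore harder to reach there, and these shares are not the power of the tests reported.

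The alternatives were DESeq2 1.42.0, its size factors, upper-quartile normalization, other filters, a single fit of all samples, a replicate block, leaving out each sample, and the longest transcript as gene length, which kept 4 of the 5 highest and 4 of the 5 lowest members in each line. With the longest transcript, MRPS21 in DU-145 and MRPL41 in LNCaP-AI went from rank 1 to rank 4. The members, the lists and the alternatives were chosen with earlier results of these data known. Named are MUC1, up to 8 members in each direction per line by adjusted p, up to 8 for the interaction, up to 5 in each direction between the vehicle groups, the 5 highest and 5 lowest per length in each line, the MRPS18 paralogs, members under the filter, and up to 4 genes per line of each other list, of which some are not reported here. MRPS34, MRPL46 and MRPS36, the neighbours of members and the members given beside them are described for their position, promoter or assignment. They were chosen after their values were seen. Subunits and counterparts follow the current names of ribosomal proteins and were entered by hand.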

Additional observations from a re-analysis of the deposited data

Results flagged for a closer look

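For 7 members the change from vehicle to DOX differed between the lines by the interaction test of edgeR, as LNCaP-AI minus DU-145 on the log2 scale. These were MRPL35 (-0.77), MRPL2 (-0.65), MRPL52 (-0.61), MRPS2 (-0.52), MRPL37 (-0.44), MRPS11 (-0.43) and MRPL41 (0.48). In LNCaP-AI, within the side of vehicle 1 and then within the other, MRPL35 was at -0.48 and -0.20, MRPL2 at -0.15 and 0.03, MRPS2 at -0.23 and -0.14, MRPL37 at -0.09 and 0.08, MRPS11 at 0.14 and 0.21, MRPL52 at 0.31 and 0.10, and MRPL41 at 0.47 and 0.52. For all of them except MRPL2 and MRPL35 the adjusted p passed 0.05 in some of the fits without 1 sample, with the highest at 0.0762 for MRPL37, 0.0793 for MRPS11, 0.0873 for MRPL41, 0.0898 for MRPL52 and 0.107 for MRPS2.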

How the results depend on the processing

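In DU-145 the direction of the members held in the alternatives run: 33 to 37 rose and 5 to 7 fell under the other tests, normalizations and filters, against 36 and 6, and 21 rose and 3 fell when all 12 samples shared a single fit. Without 1 sample, 25 to 42 rose and 4 to 7 fell, with a median of 0.17 to 0.22. Over all genes, 2986 to 3615 were called higher and 2932 to 3500 lower in these fits. In LNCaP-AI, against 1 rise and 1 fall, there were 7 and 4 with DESeq2, 2 and 2 with its size factors, 5 rises with upper-quartile normalization, 3 falls without a filter, and 10 and 5 in the single fit. Without 1 sample, 0 to 4 rose and 0 to 4 fell, with 0 of each without DOX 2 or DOX 3. Over all genes, 1 to 1933 were called higher and 0 to 1605 lower in these fits. Without DOX 2, and likewise without DOX 3, they were 1 and 0. The median of the members was 0.12 within the side of vehicle 2 and vehicle 3. The interaction gave 2 members in the direction of LNCaP-AI with DESeq2, 0 and 2 without a filter, and 0 to 3 and 2 to 13 without 1 sample, with 13 without LNCaP-AI DOX 1. Over all genes, the fits without 1 sample called 454 to 1567 higher and 283 to 2045 lower. The 2045, of 16296 genes, were those without LNCaP-AI DOX 1. The median difference of the members between vehicle groups was 0.33 with upper-quartile normalization, 0.38 without a filter and 0.16 to 0.33 without 1 sample. The cause of these shifts was not tested.

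Over all genes, DU-145 calls fell to 2035 higher and 2048 lower in the single fit (from 3583 and 3450). In LNCaP-AI they were 1897 and 1620 with DESeq2 and 2256 and 1677 in the single fit (from 1158 and 885), and for the interaction 500 and 384 without a filter (from 912 and 631), with 997 lower under DESeq2.

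Replicate numbers did not pair the samples: same-numbered deviations correlated at 0.13, -0.09 and 0.08 in DU-145 and at -0.94, -0.81 and -0.84 in LNCaP-AI. With the replicate block 36 members rose and 6 fell in DU-145, 0 and 0 were called in LNCaP-AI (0 of all genes, MRPL42 at -0.96 and MRPL41 at 0.55), 0 and 0 for the interaction (30 and 22 of all genes), and 31 and 10 between the vehicle groups.

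Of 1049 values of single members under the alternatives, 939 kept direction and side of the threshold, 68 lost and 27 gained a call, and 15 changed sign, all of them uncalled. In LNCaP-AI these were MRPL14 (0.044 with upper-quartile normalization, 0.023 in the single fit, -0.11 to 0.094 without 1 sample), MRPS16 (0.0043 with upper-quartile normalization) and MRPL37 (-0.034 without a filter, -0.023 to 0.051 without 1 sample). For the interaction they were MRPS18C (0.0042 with upper-quartile normalization, -0.21 to 0.10 without 1 sample) and MRPS10 (-0.034 to 0.23 without 1 sample).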
